A study of Mus musculus with 18 samples.

Results

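Genes of the retinoid group carry, take up, convert, break down or sense vitamin A and its derivatives, except Aldh1a7, which is included as a paralogue of Aldh1a1. The group consists of 9 genes: Rbp4, Stra6, Retsat, Rdh10, Aldh1a1, Aldh1a2, Aldh1a7, Cyp26b1 and Rarb. They were chosen by gene symbol, and all 9 were found among the 54347 rows of the count table. Their RNA was measured in 3 fat depots, the brown interscapular depot (iBAT) and the white inguinal (iWAT) and epididymal (eWAT) depots, of C57BL/6N mice aged 12 weeks and fed a chow diet. The donors were 3 wild type (wt) mice and 3 knockout (ko) mice, and each mouse gave all 3 tissues, so that 18 libraries fell into 6 groups of 3. The knockout carried a CRISPR/Cas9 deletion of the first exon of Gm15551, a long noncoding RNA gene, and the labels give the same strain name to both genotypes. Polyadenylated RNA of whole tissue was sequenced, so fewer cells of a type and less RNA per cell cannot be told apart in any value below.

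Vitamin A circulates as retinol bound to RBP4, which liver and adipose tissue secrete, and some cells take it up through the membrane receptor STRA6. Inside the cell, retinol dehydrogenases such as RDH10 oxidise it to retinal, and retinal dehydrogenases such as ALDH1A1 and ALDH1A2 turn retinal into retinoic acid. CYP26 enzymes degrade retinoic acid, and RETSAT saturates retinol to dihydroretinol. Retinoic acid binds the receptors RARα, RARβ and RARγ, which act on DNA together with RXR partners. In adipose tissue the pathway is known for effects on adipocyte differentiation and on the thermogenic gene programme of brown fat.

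Values are given in CPM, the usual count scaled to library size (by TMM factors here). The libraries held 14997901 to 34389586 counts each, and a count of 0 allows up to 3 counts, or 0.0726 to 0.234 CPM depending on the library; this covers counting error only. Brown adipocyte markers such as Ucp1 summed to 6241 to 11696 CPM in iBAT against 16.2 to 220.2 CPM in iWAT and 6.61 to 16.1 CPM in eWAT. A few libraries stood apart. Lymph node genes reached 1258 CPM in iWAT wt replicate 3 and 475 CPM in iWAT ko replicate 2, against 21.4 CPM or less in the other iWAT libraries. Epididymis genes reached 5078 CPM in eWAT ko replicate 3, against 34.7 CPM or less elsewhere, and skeletal muscle genes reached 4373 CPM in iWAT ko replicate 1, against 22.9 CPM or less elsewhere. Adipocyte markers were lowest in iWAT wt replicate 3 (7240 CPM), eWAT ko replicate 3 (9412 CPM) and iWAT ko replicate 2 (10479 CPM), and ranged from 14230 to 21528 CPM in the rest.

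**Figure D1:**
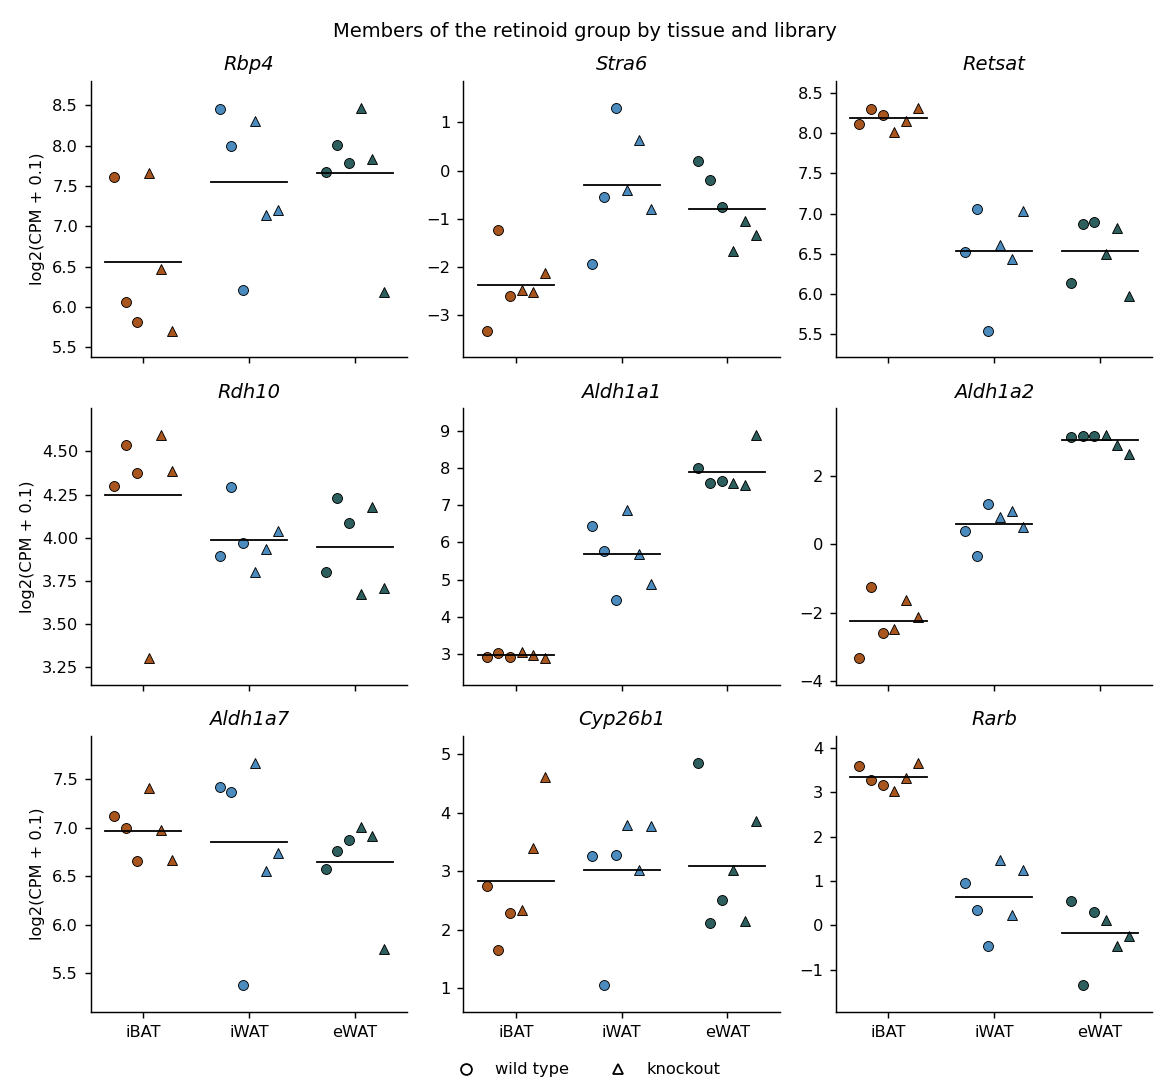
Level of each of the 9 genes in every library, as log2(CPM + 0.1), by tissue, with circles for wild type, triangles for knockout and a line at the tissue mean of the plotted values. Aldh1a1 and Aldh1a2 climb from iBAT through iWAT to eWAT without overlap, Retsat and Rarb lie higher in all iBAT libraries than in any white library, and wild type and knockout points are mixed in most panels.

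Levels of different genes were compared as CPM per kb of exon sequence, with all annotated exons of a gene joined. The order thus depends on the annotated length as well as on the counts. Rbp4 led both white tissues, with 159 ± 81.6 CPM per kb in iWAT and 166 ± 67.9 in eWAT (mean ± SD, n = 6). In iBAT it shared the lead with Retsat, at 82.1 ± 52.0 and 82.6 ± 6.64 CPM per kb. Aldh1a7 was next in iBAT with 61.7 ± 12.6, ahead of Rdh10 (4.72), Rarb (1.94), Cyp26b1 (1.68), Aldh1a1 (1.56), Aldh1a2 (0.0603) and Stra6 (0.0191). The ranges of Retsat, Rbp4 and Aldh1a7 overlapped in iBAT, and so did those of neighbours in this order from Rdh10 to Aldh1a1 and of Aldh1a2 and Stra6. In eWAT Aldh1a1 (50.8 ± 22.4) and Aldh1a7 (50.4 ± 13.2) stood side by side behind Rbp4, followed by Retsat (27.0), Rdh10 (3.73), Aldh1a2 (3.60), Cyp26b1 (2.03), Rarb (0.163) and Stra6 (0.0919). Neighbours in this order overlapped, except Retsat with Rdh10 and Cyp26b1 with Rarb. The order in iWAT was Rbp4, Aldh1a7 (63.1), Retsat (27.6), Aldh1a1 (12.2), Rdh10 (3.81), Cyp26b1 (1.75), Aldh1a2 (0.653), Rarb (0.306) and Stra6 (0.163), each in CPM per kb. Neighbours overlapped here too, except Rdh10 with Cyp26b1. Rarb held rank 5 of the 9 genes in iBAT and rank 8 in both white tissues.

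The first question was how the group differs between brown and white fat and between the white depots. Between iBAT and iWAT, 5 of the 9 genes passed the test (adjusted p under 0.05, edgeR's quasi-likelihood F-test with Benjamini-Hochberg adjustment over 18728 genes), against 54.3% of all genes tested. Retsat and Rarb were higher in iBAT, and Stra6, Aldh1a1 and Aldh1a2 were lower, against 24.0% of all genes higher and 30.3% lower. The same 5 genes passed in the same directions between iBAT and eWAT, where 54.6% of all genes passed, 24.4% higher and 30.2% lower. These comparisons share the iBAT libraries. Between iWAT and eWAT only Aldh1a1 and Aldh1a2 passed, both lower in iWAT, against 10.2% of all genes, 5.70% higher and 4.50% lower. In both brown against white comparisons, 4 of the 9 genes (Retsat, Aldh1a1, Aldh1a2 and Rarb) had no overlap between the libraries of the tissues, against 34.6% of all genes for iWAT and 37.3% for eWAT. Between the white tissues this held for Aldh1a1 and Aldh1a2, against 4.62% of all genes. The median log2 fold change of the 9 genes was -0.12, -0.45 and 0.03 in the 3 comparisons, against -0.14, -0.17 and 0.01 over all genes. Stra6 and Aldh1a2 passed the filter on low counts through the white libraries, and Rarb held 6 counts in one eWAT library. Where every library had to hold at least 10 counts, these 3 genes were not tested, and Rbp4 passed in both comparisons with iBAT (-1.04 and -1.10, adjusted p = 0.0479 and 0.0366).

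**Figure D2:**
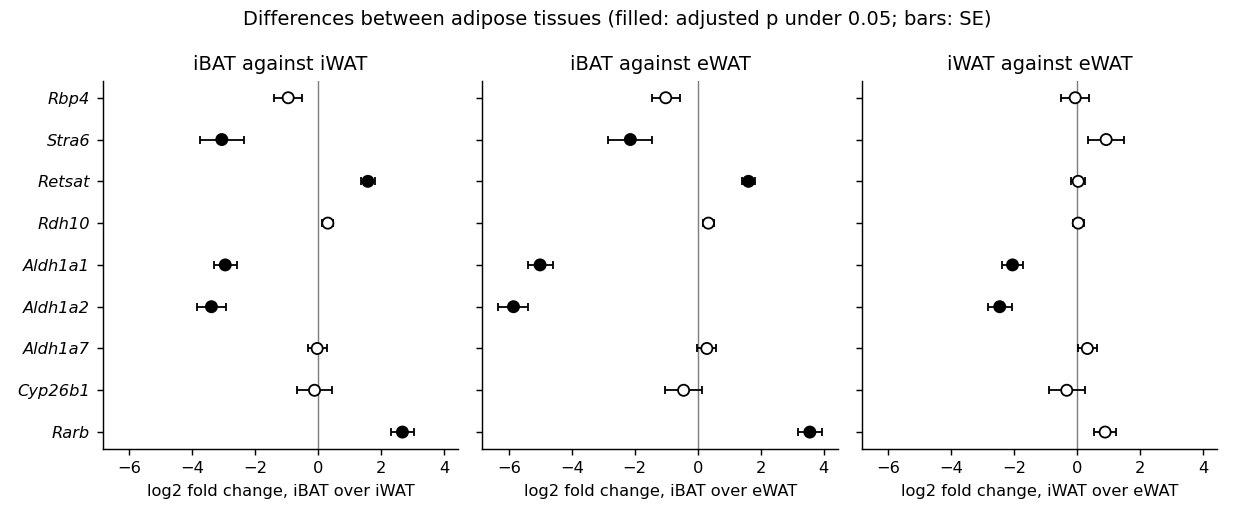
Log2 fold change of each gene between tissues with its standard error (SE), with filled points for an adjusted p under 0.05. Aldh1a1 and Aldh1a2 lie left of 0 in all 3 panels, Retsat and Rarb lie right of 0 in both panels with iBAT, and the other genes lie near 0 between iWAT and eWAT except Stra6 and Rarb, which did not pass.

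Rbp4 (chr19:38116629-38125281, minus strand, GRCm38, as are all positions of genes) encodes the serum carrier of retinol. Its level in iBAT was 196, 66.9 and 56.1 CPM in wt replicates 1 to 3 and 202, 88.9 and 52.2 CPM in the knockout. In iWAT it was 350.3, 255 and 73.9 CPM in wild type and 315, 140.5 and 147 CPM in knockout. In eWAT the values were 204, 257 and 221 CPM in wild type and 355, 229 and 72.7 CPM in knockout. The spread within a tissue was 3.87-fold in iBAT, 4.74-fold in iWAT and 4.88-fold in eWAT, and the 3 tissues overlapped. The mean was lower in iBAT, with a log2 fold change of -0.95 ± 0.45 (SE) against iWAT (adjusted p = 0.082) and -1.01 ± 0.45 against eWAT (adjusted p = 0.0647), which missed the threshold. With the mouse as a replicate block, the design in which each animal is compared with itself, both passed, at -1.02 (adjusted p = 0.00981) and -1.16 (adjusted p = 0.00492). Without the 4 libraries that stood apart they were -1.19 (adjusted p = 0.0396) and -1.20 (adjusted p = 0.0139). In iBAT the replicate 1 libraries of both genotypes lay above the others, and without either of those libraries both differences passed. The lowest white values belonged to iWAT wt replicate 3 and eWAT ko replicate 3, the libraries with the lowest adipocyte marker sums. Of 6 hepatocyte markers Cyp2e1 led in each tissue, and the other 5 summed to 3.01 to 30.7 CPM in all 18 libraries.

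Stra6, the retinol uptake receptor (chr9:58063788-58153996, plus strand), was close to the limit of detection. iBAT libraries held 0 to 5 counts each, iWAT libraries 5 to 72 and eWAT libraries 5 to 24. The highest values, 2.37 and 1.45 CPM, were those of iWAT wt replicate 3 and ko replicate 2, the libraries with lymph node genes, while the other iWAT libraries lay between 0.162 and 0.655 CPM. Its level was 8.35-fold lower in iBAT than in iWAT (log2 fold change -3.06 ± 0.69, adjusted p = 0.00134) and 4.41-fold lower than in eWAT (-2.14 ± 0.70, adjusted p = 0.0159). Without the lymph node libraries the difference from iWAT was -2.10 (adjusted p = 0.0173), and without all 4 libraries that stood apart it was -1.79 and no longer passed (adjusted p = 0.0568). Without wild type mouse 2, whose iBAT library held 5 of the 10 counts of that tissue, it was -3.74. In wild type libraries alone neither difference passed (-2.98 and -2.55, adjusted p = 0.0748 and 0.123), and in knockout libraries alone that from eWAT did not (-1.61, adjusted p = 0.0999). Macrophage markers, 5 of 5 of which were lower in iBAT than in each white tissue, were highest in the same 2 iWAT libraries, at 1433 and 1341 CPM against 231 to 540.2 CPM in the other iWAT libraries, and the part of those cells was not tested. The difference between iWAT and eWAT, 0.92 ± 0.58 (adjusted p = 0.336), became -0.05 without the lymph node libraries. The libraries of iBAT and the white tissues overlapped for this gene, since iBAT wt replicate 2 reached 0.323 CPM.

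Retsat, the retinol saturase (chr6:72598475-72608425, plus strand), was higher in every brown fat library than in any white one. iBAT libraries ranged from 258 to 319 CPM with a median of 292, a spread of 1.23-fold. iWAT libraries ranged from 46.6 to 132 CPM with a median of 94.6, and eWAT libraries from 63.0 to 119 CPM with a median of 102. The highest white library, iWAT wt replicate 2, lay far below the lowest iBAT library. The level was 2.99-fold higher in iBAT than in iWAT (log2 fold change 1.58 ± 0.22, adjusted p = 1.54e-05) and 3.06-fold higher than in eWAT (1.61 ± 0.22, adjusted p = 1.03e-05), and the white tissues differed by 0.03 ± 0.22. The lowest white values were again those of iWAT wt replicate 3 and eWAT ko replicate 3. Retsat shares 14.1% of its 50-base stretches with Gm45053, an overlapping gene on the other strand, which held 8 to 68 counts per library against 1276 to 4965 for Retsat.

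Rdh10, which carries out the first oxidation step from retinol (chr1:16105774-16133734, plus strand), varied little. iBAT libraries had a median of 20.7 CPM, with 9.76 CPM in ko replicate 1 and 19.6 to 24.1 CPM in the others. iWAT libraries ranged from 13.8 to 19.5 CPM and eWAT libraries from 12.7 to 18.6 CPM. The log2 fold change of iBAT was 0.31 ± 0.17 against iWAT (adjusted p = 0.14) and 0.34 ± 0.17 against eWAT (adjusted p = 0.102). Without iBAT ko replicate 1 these were 0.44 (adjusted p = 0.00857) and 0.47 (adjusted p = 0.00543) and passed, so 1 library decided the call.

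The retinal dehydrogenases showed the widest range. Aldh1a1 (chr19:20492715-20643465, plus strand) had 7.47, 8.08 and 7.41 CPM in wild type iBAT and 8.20, 7.79 and 7.32 CPM in knockout iBAT. In iWAT it had 87.3, 53.9 and 21.7 CPM in wild type and 118, 51.1 and 29.2 CPM in knockout. In eWAT it had 255, 195 and 202 CPM in wild type and 194, 187 and 471 CPM in knockout. The 3 tissues were ordered iBAT, iWAT, eWAT with no overlap, and the values were nearly constant in iBAT but spread 5.42-fold in iWAT. The level was 7.74-fold lower in iBAT than in iWAT (log2 fold change -2.95 ± 0.36, adjusted p = 3.96e-06) and 32.2-fold lower than in eWAT (-5.01 ± 0.39, adjusted p = 1.88e-08). iWAT was 4.15-fold lower than eWAT (-2.05 ± 0.34, adjusted p = 0.00107). The 471 CPM belonged to the library with epididymis genes, and without it the differences from eWAT were -4.75 (adjusted p = 2.23e-08) for iBAT and -1.79 (adjusted p = 0.00229) for iWAT. With the 9 libraries of 1 genotype alone, the difference between the white tissues was of like size but missed the threshold, at -2.0 in wild type (adjusted p = 0.058) and -2.11 in knockout (adjusted p = 0.166).

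Aldh1a2, which makes retinoic acid in the embryo and in mesothelial and stromal cells (chr9:71215789-71296243, plus strand), followed the same order at lower levels. iBAT libraries held 0 to 5 counts, iWAT libraries 20 to 66 counts (0.689 to 2.17 CPM) and eWAT libraries 125 to 303 counts (6.17 to 8.98 CPM). None of the tissues overlapped, and the spread in eWAT was only 1.46-fold. The level was 10.5-fold lower in iBAT than in iWAT (log2 fold change -3.39 ± 0.46, adjusted p = 1.06e-05), 57.8-fold lower in iBAT than in eWAT (-5.85 ± 0.48, adjusted p = 2.69e-08) and 5.51-fold lower in iWAT than in eWAT (-2.46 ± 0.38, adjusted p = 5.54e-04). The iBAT level behind both folds is 12 counts over 6 libraries, with single libraries mostly at or under the limit of 3 counts, so the sizes are loosely known. Without wild type mouse 2, whose iBAT library held 5 of the 12 counts, the difference from iWAT was -4.01. The difference between the white tissues missed the threshold in wild type libraries alone (-2.69, adjusted p = 0.0996). Mesothelial markers were also highest in eWAT, while between iBAT and iWAT most of them differed little in sum. Their summed level was 82.4 to 151 CPM in eWAT, 6.07 to 57.4 CPM in iWAT and 4.57 to 8.27 CPM in iBAT, where Upk1b and Wt1, of 8 markers, were at 0 in all 6 libraries. Of the 8 markers, 5 were lower and 1 was higher in iBAT than in iWAT, 7 were lower in iBAT than in eWAT and 7 were lower in iWAT than in eWAT. Krt19 made up 1.07 to 50.4 CPM of the sum in iWAT, and the other 7 markers summed to 35.6 to 140 CPM in eWAT, 4.65 to 7.48 CPM in iWAT and 4.51 to 8.14 CPM in iBAT. Progenitor markers also summed higher in white fat, with 596 to 1770 CPM against 194 to 268 CPM in iBAT, where 6 of 6 were lower than in iWAT and 4 of 6 lower than in eWAT. Macrophage markers summed to 51.1 to 133 CPM in iBAT, 231 to 1433 CPM in iWAT and 132 to 511 CPM in eWAT. The part of these cells in the Aldh1a1 and Aldh1a2 values was not tested.

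Aldh1a7, a neighbour and close paralogue of Aldh1a1 (chr19:20692953-20727562, minus strand), did not follow it. Its role in the group is that of a paralogue, and it was not listed as a retinal dehydrogenase. iBAT libraries ranged from 101 to 170.5 CPM with a median of 127, iWAT libraries from 41.4 to 204 CPM with a median of 136, and eWAT libraries from 53.7 to 129 CPM with a median of 113. The tissues overlapped, and the log2 fold changes were -0.03 ± 0.30 for iBAT against iWAT, 0.29 ± 0.30 for iBAT against eWAT and 0.32 ± 0.30 for iWAT against eWAT (adjusted p = 0.936, 0.426 and 0.538). The lowest libraries were iWAT wt replicate 3 and eWAT ko replicate 3, as for Rbp4 and Retsat.

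The contrast between Aldh1a1 and Aldh1a7 depends on telling their reads apart. Their coding sequences are identical at 1380 of 1501 aligned bases (91.9%), and 151 stretches of 50 bases, the length of a read, occur in both, which is 3.06% of the stretches of Aldh1a1 and 7.49% of those of Aldh1a7. Aldh1a2 shares none with either and is 71.5% identical to Aldh1a1. The stretch of coding exon 9 below (coding bases 851 to 910 of both genes, GRCm38, read 5′ to 3′ along each transcript) is shown because it is one of the stretches that separate them, and the 11 differing bases are in capitals. Aldh1a1 lies on the plus strand at chr19:20630666-20630725 and Aldh1a7 on the minus strand at chr19:20708275-20708334.
Aldh1a1: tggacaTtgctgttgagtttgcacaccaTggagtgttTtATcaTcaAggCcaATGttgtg
Aldh1a7: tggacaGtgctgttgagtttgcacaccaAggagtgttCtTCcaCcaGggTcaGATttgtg
Within a library, the ratio of Aldh1a1 to Aldh1a7 in CPM per kb does not depend on the scaling of the library, but it does depend on exon length. It lay between 0.0201 and 0.0308 in iBAT, between 0.115 and 0.242 in iWAT, and between 0.631 and 3.67 in eWAT. Aldh1a7 thus exceeded Aldh1a1 by 32.5 to 49.7-fold in every iBAT library and by 4.13 to 8.73-fold in every iWAT library. In eWAT, per kb, Aldh1a7 was the higher in 4 of 6 libraries. Aldh1a1 was the higher in wt replicate 1 (ratio 1.12) and in ko replicate 3 (3.67), the library with epididymis genes. The joined exons span 4937 bases over 6 transcripts for Aldh1a1 and 2066 bases over 1 transcript for Aldh1a7. Without division by length, Aldh1a1 was the higher in eWAT, at 187 to 471 CPM against 53.7 to 129 CPM.

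**Figure D3:**
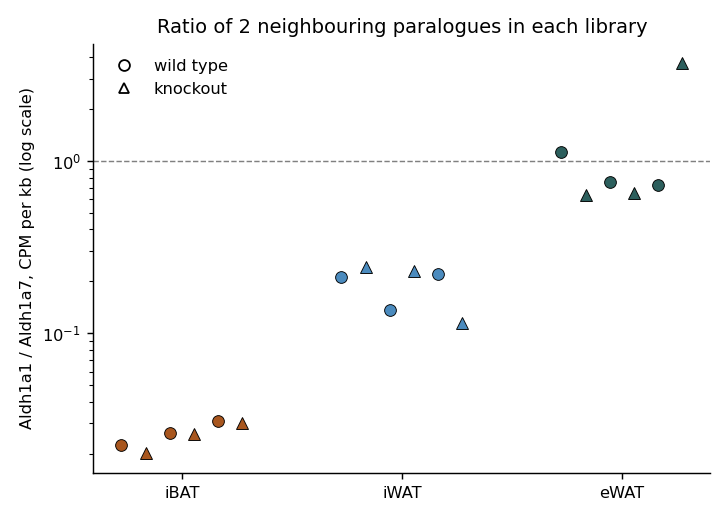
Ratio of Aldh1a1 to Aldh1a7 in CPM per kb in each of the 18 libraries on a log scale. Circles mark wild type, triangles mark knockout and a dashed line marks equal levels per kb of joined exons. The ratio rises from 0.0201 to 0.0308 in iBAT through 0.115 to 0.242 in iWAT to 0.631 to 3.67 in eWAT, with no overlap.

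Cyp26b1, which hydroxylates retinoic acid for clearance (chr6:84571414-84593908, minus strand), varied more within tissues than between them. iBAT libraries had 6.60, 3.04 and 4.77 CPM in wild type and 4.92, 10.4 and 24.3 CPM in knockout. iWAT libraries had 9.52, 1.96 and 9.53 CPM in wild type and 13.7, 7.97 and 13.5 CPM in knockout. eWAT libraries had 28.8, 4.21 and 5.56 CPM in wild type and 8.0, 4.33 and 14.3 CPM in knockout. The spread was 8.01-fold in iBAT, 6.99-fold in iWAT and 6.85-fold in eWAT, and all tissues overlapped. The log2 fold changes were -0.12 ± 0.56 for iBAT against iWAT, -0.45 ± 0.58 for iBAT against eWAT and -0.33 ± 0.57 for iWAT against eWAT, none of which passed. Without eWAT wt replicate 1 the comparisons with eWAT changed sign, to 0.31 and 0.48, also without passing.

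Rarb, the receptor RARβ (chr14:16430839-16819156, minus strand), was the nuclear receptor of the group and was high in brown fat. iBAT libraries had 12.0, 9.69 and 8.89 CPM in wild type and 8.04, 9.89 and 12.6 CPM in knockout. iWAT libraries ranged from 0.625 to 2.70 CPM with a median of 1.51, and eWAT libraries from 0.29 to 1.36 CPM with a median of 0.862. The lowest iBAT library lay well above the highest white library. The level was 6.40-fold higher in iBAT than in iWAT (log2 fold change 2.68 ± 0.36, adjusted p = 1.13e-05) and 11.8-fold higher than in eWAT (3.57 ± 0.38, adjusted p = 5.97e-07). iWAT and eWAT overlapped, and their difference of 0.89 ± 0.36 did not pass (adjusted p = 0.126), although it did without the lymph node libraries (1.21, adjusted p = 0.0358). Rarb shares 34.1% of its 50-base stretches with the overlapping genes Top2b and Gm48162, and whether counting used the strand is not given in the sources used here. Gm48162 held 0 counts in all libraries, and Top2b had 58.8 to 73.3 CPM in iBAT against 56.1 to 85.2 CPM in iWAT and 64.2 to 77.1 CPM in eWAT, ranges that overlapped.

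Rarb is itself a classical target of retinoic acid, through a pair of half-sites 5 bases apart (a DR5 element) near its start. The element is shown because Rarb had the largest difference between brown and white fat of the 6 RAR and RXR genes. It was read from the RefSeq promoter table (GRCm38.p6, chr14:16575506-16575535, minus strand), where it lies 53 to 37 bases before the annotated start, in sequence that belongs to the 5′ UTR of a longer GENCODE transcript. Capitals mark the half-sites.
Rarb: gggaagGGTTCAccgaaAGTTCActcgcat
The search allowed the half-site AGGTCA as well as its variants AGTTCA and also GGGTCA together with GGTTCA, as direct repeats on either strand, in windows from 250 bases before to 50 bases after each start. A spacing of 5 bases was found in 32 of 32851 promoters (0.0974%), of 2 bases in 88 (0.268%) and of 1 base in 73 (0.222%). Promoters were given for 8 of the 9 genes, in 13 windows, and Rarb was the one gene with a match. That match was fixed in advance, since both half-sites of the known Rarb element were among those allowed. A match describes these letters only, and a window without one says nothing about binding. Whether retinoic acid takes part in the brown fat level of Rarb was not tested.

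The rest of the pathway was read from a list of 56 further genes, of which 45 passed the filter on low counts. Between iBAT and iWAT 24 of the 45 differed, 7 higher and 17 lower in iBAT, with a median log2 fold change of -0.44, against -0.14 over all genes. Between iBAT and eWAT 25 differed, 8 higher and 17 lower, with a median of -0.45 against -0.17 over all genes. Between iWAT and eWAT 7 differed, 3 higher and 4 lower in iWAT. The shares called stand beside 54.3%, 54.6% and 10.2% of all genes.

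Of the 5 other nuclear receptors, 1 was higher and 3 were lower in iBAT than in iWAT, and 2 were higher and 3 lower than in eWAT. Rara and Rarg, the other retinoic acid receptors, were lower in iBAT than in iWAT, at log2 fold changes of -0.85 ± 0.23 (adjusted p = 0.00459) and -0.66 ± 0.12 (adjusted p = 2.1e-04). Against eWAT, Rarg was at -0.67 ± 0.12 (adjusted p = 1.8e-04) and Rara at -0.55 ± 0.23 (adjusted p = 0.0477). The last of these missed the threshold with other scalings (adjusted p = 0.0543 with DESeq2 size factors), without the filter (adjusted p = 0.0514) and without any 1 of 13 of the 18 libraries (adjusted p = 0.0535 to 0.0999). Among the RXR partners, Rxra was lower in iBAT, at -0.79 ± 0.19 against iWAT and -1.12 ± 0.19 against eWAT (adjusted p = 0.00217 and 1.1e-04). Rxrb was higher, at 1.08 ± 0.08 and 1.25 ± 0.08 (adjusted p = 9.1e-09 and 1.1e-09), with every iBAT library between 97.1 and 115 CPM and every white library between 38.4 and 54.0 CPM. Rxrg was higher than in eWAT (1.0 ± 0.32, adjusted p = 0.0153), while its difference from iWAT, 0.73 ± 0.32, did not pass (adjusted p = 0.0658). It passed when the mouse was a block (0.82, adjusted p = 0.0163), with DESeq2 (0.75, adjusted p = 0.04) and without iWAT wt replicate 1, iWAT ko replicate 1 or eWAT ko replicate 3 (0.73 to 1.0, adjusted p = 0.0152 to 0.0427). None of these 5 receptors passed edgeR's test between iWAT and eWAT. The corepressor gene Nrip1 was 4.66-fold lower in iBAT than in iWAT and 7.16-fold lower than in eWAT (log2 fold change -2.22 ± 0.22 and -2.84 ± 0.22, adjusted p = 3.5e-07 and 1.9e-08).

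**Figure D4:**
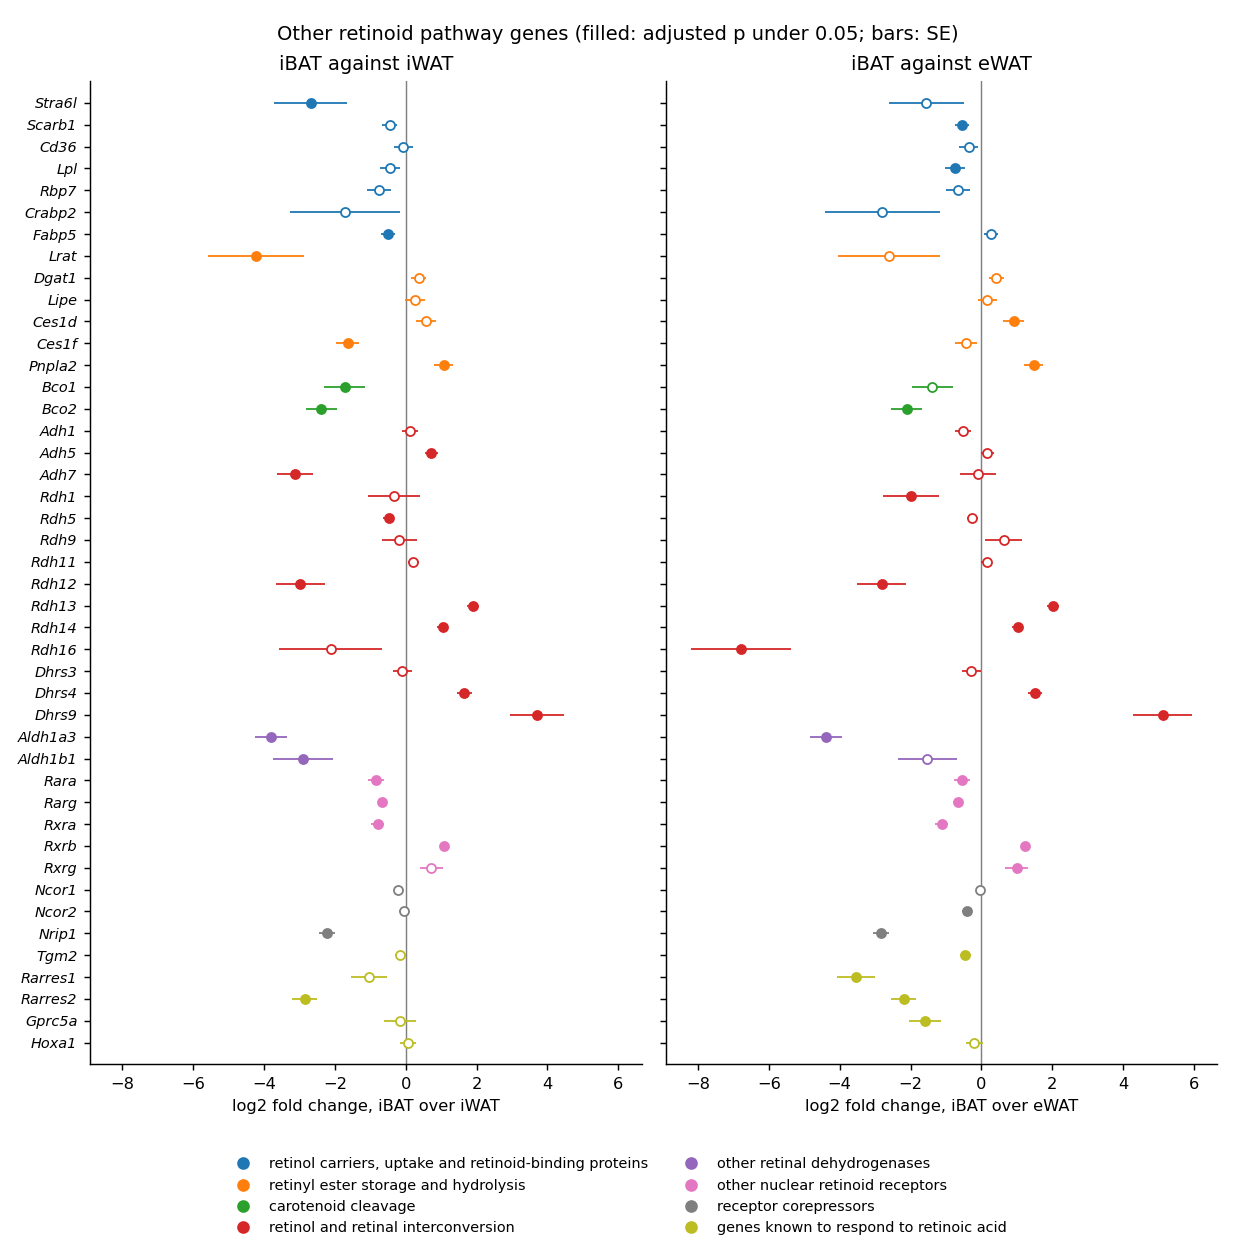
Log2 fold change with SE of 44 of the 45 further pathway genes tested, grouped and coloured by role, for iBAT against iWAT and against eWAT, with filled points for an adjusted p under 0.05. Most filled points lie left of 0, while Rxrb, Rdh13, Rdh14, Dhrs4, Dhrs9 and Pnpla2 lie right of 0 in both panels.

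The counts by role stand beside 24.0% of all genes higher and 30.3% lower in iBAT than in iWAT, and 24.4% higher and 30.2% lower than in eWAT. Of 8 tested carrier, uptake and binding genes, 3 were lower in iBAT than in iWAT and 3 were lower than in eWAT, not all the same genes, and 0 were higher. Fabp5, one of those lower than in iWAT (-0.51 ± 0.20, adjusted p = 0.0415), was not lower than in eWAT (0.28 ± 0.20, adjusted p = 0.251). Its call against iWAT was lost when the mouse was a block (adjusted p = 0.069). That call was also lost without any 1 of 11 of the 18 libraries (adjusted p = 0.0528 to 0.129). Of 6 genes of retinyl ester storage, 1 was higher and 2 were lower in iBAT than in iWAT, and 2 were higher than in eWAT. Both tested carotenoid cleavage genes were lower in iBAT than in iWAT, and 1 was lower than in eWAT. Of 14 tested genes of retinol and retinal interconversion, 5 were higher and 3 lower in iBAT than in iWAT. Against eWAT, 4 were higher and 3 lower. Rdh13, a mitochondrial retinol dehydrogenase, Rdh14, and Dhrs4, a peroxisomal short-chain dehydrogenase, were higher in iBAT than in iWAT by log2 fold changes of 1.91 ± 0.17, 1.05 ± 0.16 and 1.66 ± 0.20. They were higher than in eWAT by 2.02 ± 0.17, 1.02 ± 0.16 and 1.52 ± 0.20, and no library of these 3 genes overlapped with white fat, as for 34.6% of all genes against iWAT and 37.3% against eWAT. Dhrs9, a retinol dehydrogenase, had the largest excess in iBAT of these 14 genes, 13.2-fold against iWAT and 35.0-fold against eWAT (3.72 ± 0.76 and 5.13 ± 0.83, adjusted p = 6.1e-04 and 6.2e-05). Its iBAT level was uneven, at 19.6, 9.5 and 3.87 CPM in wild type and 29.3, 8.02 and 2.63 CPM in knockout, with the replicate 1 mice highest as for Rbp4. The difference from iWAT was 4.34 without iWAT ko replicate 2 and 4.95 without the 4 libraries that stood apart. White levels were low, at 3 to 62 counts a library in iWAT and 1 to 19 in eWAT, and with limma voom the differences were 4.35 and 4.10. Adh7, an alcohol dehydrogenase that can oxidise retinol, stood out in iWAT, at 1.81 to 7.85 CPM against 0.321 to 0.624 CPM in iBAT and 0.148 to 1.58 CPM in eWAT (adjusted p = 6.9e-05 and 8.6e-04). Its difference between the white tissues, 3.03 ± 0.49, was 3.67 without the epididymis library, and that from iBAT, -3.13 ± 0.51, was -2.32 without the 4 libraries that stood apart. Rdh16 was lower in iWAT than in eWAT (-4.67 ± 1.15, adjusted p = 0.0172), which rested on 11.7 CPM in eWAT wt replicate 1 and 32.5 CPM in ko replicate 3 against 0.653 CPM or less in the other eWAT libraries. Without either of these it did not pass (-3.92 and -2.55, adjusted p = 0.0872 and 0.126), nor when the mouse was a block (-2.85, adjusted p = 0.113). These are the libraries with the highest epididymis marker sums, 34.7 and 5078 CPM, and the part of those cells was not tested.

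Aldh1a3, the remaining classical retinal dehydrogenase, resembled Aldh1a1 and Aldh1a2 in being low in brown fat. It was 14.1-fold lower in iBAT than in iWAT and 20.9-fold lower than in eWAT (log2 fold change -3.81 ± 0.45 and -4.39 ± 0.45, adjusted p = 2.5e-06 and 4.1e-07). iBAT libraries ranged from 0.449 to 1.20 CPM and no white library was below 3.41 CPM. The difference from iWAT was -2.77 in wild type libraries alone, -4.60 in knockout libraries alone and -3.03 without the 4 libraries that stood apart. Fabp5 and Ces1f, a carrier of fatty acids and retinoic acid and a carboxylesterase, were higher in iWAT than in eWAT by 0.78 ± 0.20 and 1.20 ± 0.32 (adjusted p = 0.0216 and 0.027). Both calls were close to the threshold. That of Fabp5 was lost without iWAT wt replicate 2 or eWAT wt replicate 1 (adjusted p = 0.05005 and 0.0587). That of Ces1f was lost when the mouse was a block (adjusted p = 0.0523) and without iWAT wt replicate 1, iWAT wt replicate 2, iWAT ko replicate 3, eWAT wt replicate 1 or eWAT wt replicate 3 (adjusted p = 0.0508 to 0.0639).

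Of 5 tested genes known to respond to retinoic acid, 1 differed between iBAT and iWAT and 4 between iBAT and eWAT, all lower in iBAT, beside 30.3% and 30.2% of all genes lower. Rarres2, which encodes the adipokine chemerin, was lower in iBAT by -2.85 ± 0.35 against iWAT and -2.19 ± 0.35 against eWAT (adjusted p = 4.4e-06 and 4.6e-05), with 28.6 to 33.9 CPM in iBAT and 57.8 to 445 CPM in white fat. Rarres1 was lower in iBAT than in eWAT (-3.53 ± 0.54, adjusted p = 3.2e-05) and lower in iWAT than in eWAT (-2.50 ± 0.50, adjusted p = 0.00493), the latter at -3.26 without iWAT wt replicate 3. Gprc5a was lower in iWAT than in eWAT at -1.42 ± 0.44, a call close to the threshold (adjusted p = 0.0489) that leaving out any 1 of 13 of the 18 libraries ended (adjusted p = 0.0522 to 0.114), among them the epididymis library (adjusted p = 0.0905). With libraries of 1 genotype alone, further calls between iBAT and white fat were lost among the genes named here, in knockout (Rara against iWAT and Gprc5a against eWAT, adjusted p = 0.206 and 0.13), Rxra against iWAT in wild type (adjusted p = 0.0554) and Rxrg against eWAT in both (adjusted p = 0.147 and 0.0905). Pathway genes not tested for low counts were Ttr, Rbp2, Crabp1, Adh4, Rdh7, Sdr16c5, Sdr16c6, Aldh8a1, Cyp26a1, Cyp26c1 and Stra8, and none of them exceeded 163 counts in a library.

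The second question was whether the group changes when Gm15551 is lost. The knockout itself was visible in every library: in the wild type, Gm15551 held 40 to 68 counts (iBAT), 59 to 316 counts (iWAT) and 181 to 237 counts (eWAT), against 0, 0 to 1 and 0 to 4 counts in the knockout. Across tissues, 0 of the 9 genes passed the test, against 0.00534% of all genes, a single gene, which was Gm15551. Within iBAT, iWAT and eWAT 0 of the 9 genes passed, against 0.00%, 0.00% and 0.00534% of all genes. Gm15551 itself thus did not pass in iBAT or iWAT, so these tests can miss even a nearly complete loss. At an unadjusted p under 0.05 there were also 0 of 9 in each of the 4 comparisons, where 411, 238, 415 and 814 of 18728 genes fell under it, and DESeq2 and limma called 0 as well. The interaction of genotype and tissue called 0 of 18728 genes (264 at an unadjusted p under 0.05), and DESeq2 also called 0 (314 unadjusted).

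**Figure D5:**
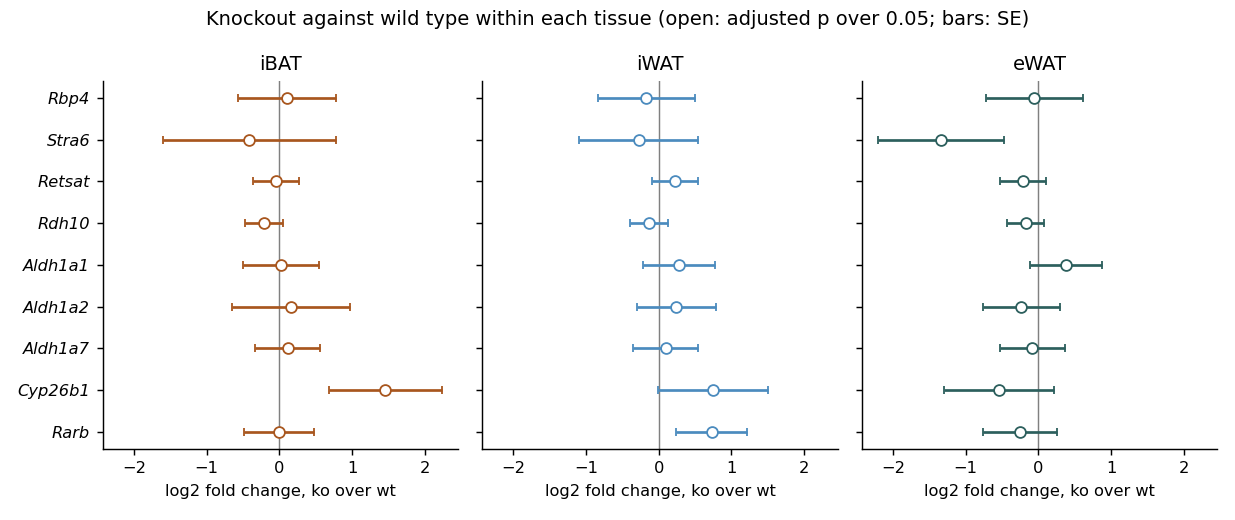
Log2 fold change of knockout over wild type within each tissue, with SE, for the 9 genes, 3 libraries a group. No gene passed the test, and the widest bar in each tissue belongs to Stra6.

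The precision differed between genes. The model across tissues counted the 3 tissues of a mouse as separate samples, although each genotype had 3 mice, so its SEs may be too small. Across tissues the log2 fold change of knockout over wild type was -0.01 ± 0.18 for Retsat, -0.17 ± 0.14 for Rdh10, 0.04 ± 0.24 for Aldh1a7, -0.04 ± 0.36 for Rbp4, 0.24 ± 0.28 for Aldh1a1, 0.03 ± 0.32 for Aldh1a2 and 0.17 ± 0.29 for Rarb. The largest SEs were those of Cyp26b1 (0.55 ± 0.48) and Stra6 (-0.71 ± 0.52), and leaving out single libraries or mice moved the value of Cyp26b1 between 0.12 and 1.20. Cyp26b1 in iBAT had a value of 1.46 ± 0.78 (adjusted p = 1.0), which became 0.67 without ko replicate 3, the library at 24.3 CPM, and in eWAT its value of -0.54 turned to 0.85 without wt replicate 1, the library at 28.8 CPM. Stra6 in eWAT was the one gene without overlap between genotypes, at 1.05, 0.774 and 0.492 CPM in wild type and 0.214, 0.387 and 0.296 CPM in knockout, 5 to 24 counts in all, and its difference of -1.34 ± 0.86 did not pass (adjusted p = 1.0). Of all genes, 5.25% did not overlap in that comparison, and in iBAT and iWAT, where none of the 9 genes was without overlap, 4.94% and 4.92% did not. Among the further pathway genes, 0 of 45 passed in any genotype comparison. Aldh1a3, named after its values were seen, had the smallest unadjusted p of these, in iWAT, at 3.59, 3.41 and 8.19 CPM in wild type and 24.5, 20.6 and 12.2 CPM in knockout (1.91, unadjusted p = 2.4e-04, adjusted p = 1.0). DESeq2 called it (1.92, adjusted p = 0.0218). Its 2 highest values came from ko replicates 1 and 2, which stood apart for skeletal muscle and lymph node genes. These libraries also had the highest progenitor marker sums in iWAT, 1770 and 1495 CPM against 606 to 1043 CPM in the others. The part of those cells was not tested.

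The genes most like each member were found by the root mean square of the difference in log2(CPM + 0.5), after centring, over 18 libraries and 14988 genes with a mean of at least 1 CPM. Over all libraries Retsat was closest to Hibch (0.17), Hibadh and Gpx4 (both 0.18), where its own variation was 0.86. After subtraction of tissue means it was closest to Eci1 (0.10), Pnpla2 (0.11) and Hibch (0.13), against its own 0.36. Aldh1a7 came closest to Acsl1 and Ppip5k1 (both 0.10) and Fitm2 (0.14) after subtraction, against its own 0.53. Aldh1a1 was then closest to Prrg3 (0.19), against its own 0.55. Over all libraries Aldh1a1 was closest to Slc16a12 (0.48), Aldh1a2 to Lrrc4c (0.39) and Rarb to Khdrbs3 (0.36), against 2.06, 1.57 and 1.36 of their own. Cyp26b1 had no close companion, with Plcd4 at 0.68 against its own 0.91, and for Rdh10 the nearest gene, Tor2a, was at 0.21 against 0.32. Stra6 was below 1 CPM on average and was left out. These values describe likeness across libraries that share tissue and depth.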

How the data were processed

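The authors used cutadapt for quality filtering and then quantified paired 50-base reads with salmon against GENCODE M22 (GRCm38), alone or joined with RNAcentral. The deposited values are salmon's estimated counts, summarised by gene, rounded and not normalised. Which tool versions and strand mode were used, and how transcripts were joined into genes, is not given in the sources used here. Salmon divides reads shared between genes by a model, which matters for Aldh1a1, Aldh1a7, Rarb and Retsat. Groups came from the titles, and replicates of a group are separate mice. Exon lengths and positions came from GENCODE M21.

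Testing used edgeR 4.0.16 (R 4.3.3) with its quasi-likelihood F-test. Genes were filtered with filterByExpr by group and libraries scaled by TMM. Tissue contrasts and the genotype effect across tissues came from a model with both terms and none for the mouse. Genotype effects within tissues came from 1 mean per group. Benjamini-Hochberg adjustment ran over 18728 genes, with a threshold of 0.05. SE was derived from the log2 fold change and its F statistic. DESeq2 1.42.0 and limma 3.58.1 served as alternatives, with other scalings, filters, libraries left out and blocks. Libraries with the same genotype and number came from 1 mouse by the labels, which pairs the tissues. The deviations of 2 tissues of a mouse correlated at -0.17 to 0.33 (median 0.06). The edgeR script was tested on simulated data. Members, gene lists and tests were chosen with earlier results of these data known. Named were all members, the 5 other receptors, up to 5 pathway genes per direction and tissue contrast with the smallest adjusted p, any pathway gene past the threshold for genotype, and up to 3 genes most like each member. Marker lists served as sums and as counts of genes passing the test. A few results that the naming rule picked are not reported here.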

Additional observations from a re-analysis of the deposited data

Results flagged for a closer look

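In 27 comparisons of the 6 libraries of a tissue for the 9 genes, 3 held a library whose distance from its nearest neighbour was unusually large relative to the range (Dixon's ratio), where chance alone would give about 1.35 (1 in 20). Rdh10 was low in iBAT ko replicate 1, at 9.76 CPM against 19.6 CPM in the next library (ratio 0.686). Aldh1a1 was high in eWAT ko replicate 3, at 471 CPM against 255 CPM (ratio 0.759), the library with epididymis genes. Cyp26b1 was high in iBAT ko replicate 3, at 24.3 CPM against 10.4 CPM (ratio 0.653).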

How the results depend on the processing

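Over all alternatives, 2228 of 2263 values of the 9 genes kept their side of the threshold, 28 newly passed and 7 no longer passed. For the 19 pathway genes picked by the naming rule these were 4616 of 4767, 19 and 132. The sign changed in 0 of 437 and 0 of 1390 values of differences that had passed, and in 189 of 1826 and 313 of 3377 values of those that had not. Another scaling moved the median of all genes by less than 0.1 (log2).

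The values below are numbers of genes passing the test. Where every library had to hold at least 10 counts, the 9 genes gave 3, 3 and 1 (iBAT against iWAT, iBAT against eWAT, iWAT against eWAT, from 5, 5 and 2), and iWAT against eWAT gave 2 pathway genes and 1149 of all genes (from 7 and 1911), with 0 for genotype across tissues and in eWAT. Fewer samples lowered the counts of all genes, from 10164, 10220 and 1911 to 6595, 6574 and 247 in wild type and to 5584, 5878 and 123 in knockout. Between iWAT and eWAT this left 0 of the 9 genes and 1 pathway gene in wild type, and 1 and 0 in knockout, where 16 pathway genes passed for iBAT against eWAT. limma voom called 2980 genes between iWAT and eWAT, and for genotype 2 across tissues and 3 in eWAT. DESeq2 called 4, 13, 4 and 13 genes for genotype (across tissues, iBAT, iWAT, eWAT; edgeR 1, 0, 0 and 1), 1 of them a pathway gene in iWAT. For genotype in iWAT, 1 gene passed without the filter and 1 without the epididymis library. Without the 4 libraries that stood apart it was 11, and 1 in iBAT. In eWAT it was 0 without the epididymis or the muscle library and with eWAT libraries alone. The cause was not tested.

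With the mouse as a replicate block, 6, 6 and 2 of the 9 genes passed, the additional gene being Rbp4, and 25, 24 and 5 pathway genes. Wild type and knockout mice of equal number have animal identifiers of the same series, but no source used here says that a number marks a litter or day (correlations -0.47 to 0.55, 4 of 9 over 0.1), and with that number as a replicate block 3 genes passed for genotype across tissues and 0 in eWAT, and 0 of the 9.

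Leaving out single libraries or mice gave 5 to 7, 5 to 7 and 2 of the 9 genes, 21 to 26, 20 to 26 and 2 to 8 pathway genes and 8717 to 11124, 8965 to 10872 and 750 to 2117 of all genes for the tissue comparisons. For genotype it gave 0 of the 9 and of the pathway genes throughout, and 1 gene across tissues and 0 to 1 within each tissue. The DESeq2 interaction test was added after seeing the data. Counts of 0 to 5 limit Stra6 and Aldh1a2 in iBAT.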
